A study of Mus musculus with 12 samples.

Results

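Potassium channel subunit genes were compared between dorsal root ganglia of DAAO and control mice. They were taken as all protein-coding genes of the deposited count table whose symbol starts with Kcn, followed by letters and a digit, which gave 93 of 54532 genes in 20 subfamilies. Of these, 81 passed the filter on low counts and were tested among 17002 genes, and 12 did not pass. Total RNA of the ganglia, which hold the cell bodies of sensory neurons together with glia and blood vessels, was sequenced as 6 libraries per group. The DAAO libraries came from C57BL/6 mice with the genotype label DAAO-TGCdh5 that had received D-alanine, and the control libraries from C57BL/6 mice with the genotype label CDH5-Cre that had also received D-alanine. DAAO is D-amino acid oxidase, an enzyme that releases hydrogen peroxide as it oxidises D-alanine, and Cdh5 is vascular endothelial cadherin, whose promoter is used to drive Cre recombinase in endothelium. Cre is named in the genotype label of the control mice and, for the DAAO mice, only in the sample titles. Age, sex and the segmental level of the ganglia are not stated in the labels. The labels do not state that each library is a separate animal either, so every p-value rests on the spread among these libraries, which may be technical. The series title links oxidative stress in nerves and vessels to sensory ataxia, and the comparison asked which channel transcripts differed between the genotypes.

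Potassium channels let potassium leave the cell and so set the resting potential of a neuron, end its action potentials and limit how often it fires. In sensory neurons the voltage-gated pores carry transient and sustained outward currents, two-pore-domain channels carry leak currents, and inward rectifiers serve mainly in glia and in receptor-coupled inhibition. Silent modifier subunits form no channel alone and join voltage-gated pores, while accessory subunits alter the gating or traffic of a pore without lining it.

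The pore-lining subunits share a short stretch of coding sequence, the selectivity filter, by which the protein recognises potassium. It is shown here because it separates pore-lining from accessory members and shows the doubled pore of the two-pore-domain subfamily, which holds the member that passed the test. The pattern searched was 5 codons in frame, for threonine or serine, any residue, glycine, then tyrosine, phenylalanine or leucine, then glycine, in the longest coding sequence of each gene in GENCODE M21 (GRCm38). It was found in 77 of 77 pore-forming and silent subunit genes and in 0 of 16 accessory genes (Kcnab, Kcne, Kcnip and Kcnmb), against 5.41% of 21764 genes with a coding sequence. At least 2 matches were found in 14 of 14 Kcnk genes, against 0.556% of all genes. Among the 30 voltage-gated pore-forming genes, which have a single pore domain, Kcna6 and Kcnh2 also held 2 or more matches (6.67%), so a match is only a run of codons. The capitals mark the 5 filter codons, each with 15 bases on either side. Both filters are given for Kcnk1 (plus strand, chr8:125995793-126025034 across an intron, and chr8:126025314-126025358 in exon 2) and for Kcnk12 (minus strand, chr17:87746819-87797085 across an intron, and chr17:87746438-87746482 in exon 2). Kcnc1 (plus strand, chr7:46427958-46428002, exon 2) and Kcns1 (minus strand, chr2:164164839-164164883, exon 4) have a single one.
Kcnk1 first filter: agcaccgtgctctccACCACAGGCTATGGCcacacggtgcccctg
Kcnk1 second filter: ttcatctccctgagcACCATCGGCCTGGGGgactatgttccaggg
Kcnk12 first filter: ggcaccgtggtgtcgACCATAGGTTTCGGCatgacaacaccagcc
Kcnk12 second filter: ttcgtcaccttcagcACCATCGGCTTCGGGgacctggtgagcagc
Kcnc1 filter: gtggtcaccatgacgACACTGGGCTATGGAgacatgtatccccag
Kcns1 filter: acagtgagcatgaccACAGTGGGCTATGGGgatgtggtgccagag

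Libraries held 13227518 to 23884927 counts. Mitochondrial transcripts took 7.45% and 7.65% of the counts of control libraries 2 and 6, against 3.32% to 5.13% in the other 10 libraries. Control 2 also had the highest summed level of 7 oligodendrocyte and spinal cord markers, 2383 CPM (read counts made comparable between libraries by TMM scaling), against 14.1 to 686 CPM in the other libraries. Skeletal muscle markers, 10 genes, summed to 3114 CPM in control 4 and 1242 CPM in control 5, against 6.21 to 640 CPM in the other libraries. The tissue label was borne out by the neuronal markers: the 15 pan-neuronal genes summed to 10510 to 17562 CPM in DAAO libraries and 12999 to 19494 CPM in control libraries, and none was at 0. Because these are bulk samples, fewer cells of a type and less RNA per cell cannot be told apart.

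One of the 81 tested potassium channel genes passed the test, Kcnk1, which fell in DAAO ganglia (edgeR quasi-likelihood test, adjusted p under 0.05 over all genes tested). This is 1.23% of the members, against 0.753% of all genes tested, or 0.247% counting lower genes alone. Kcnk1 was also the only member whose groups did not overlap, against 1.45% of all genes. No member was called higher (0.506% of all genes were), by edgeR, by DESeq2 or by limma-voom. At an unadjusted p under 0.05 there were 9 members, or 11.1%, against 10.3% of all genes tested. They were 2 higher and 7 lower in DAAO ganglia, against 5.44% of all genes higher and 4.87% lower. The median log2 fold change of the members, DAAO minus control, was -0.01, against 0.00 over all genes, and 72 of the 81 differed by less than 1.5-fold. Values of single members ran from -1.02 for Kcnk1 to 1.10 ± 0.92 for Kcne3, which had 0.722 ± 0.353 CPM in DAAO ganglia and 0.350 ± 0.478 CPM in control ganglia, and 32 of the 81 had a standard error over 0.3. Potassium channel genes as a whole took 0.467% ± 0.0403 of the counts in DAAO libraries and 0.474% ± 0.0917 in control libraries (SD, n = 6 each).

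**Figure D1:**
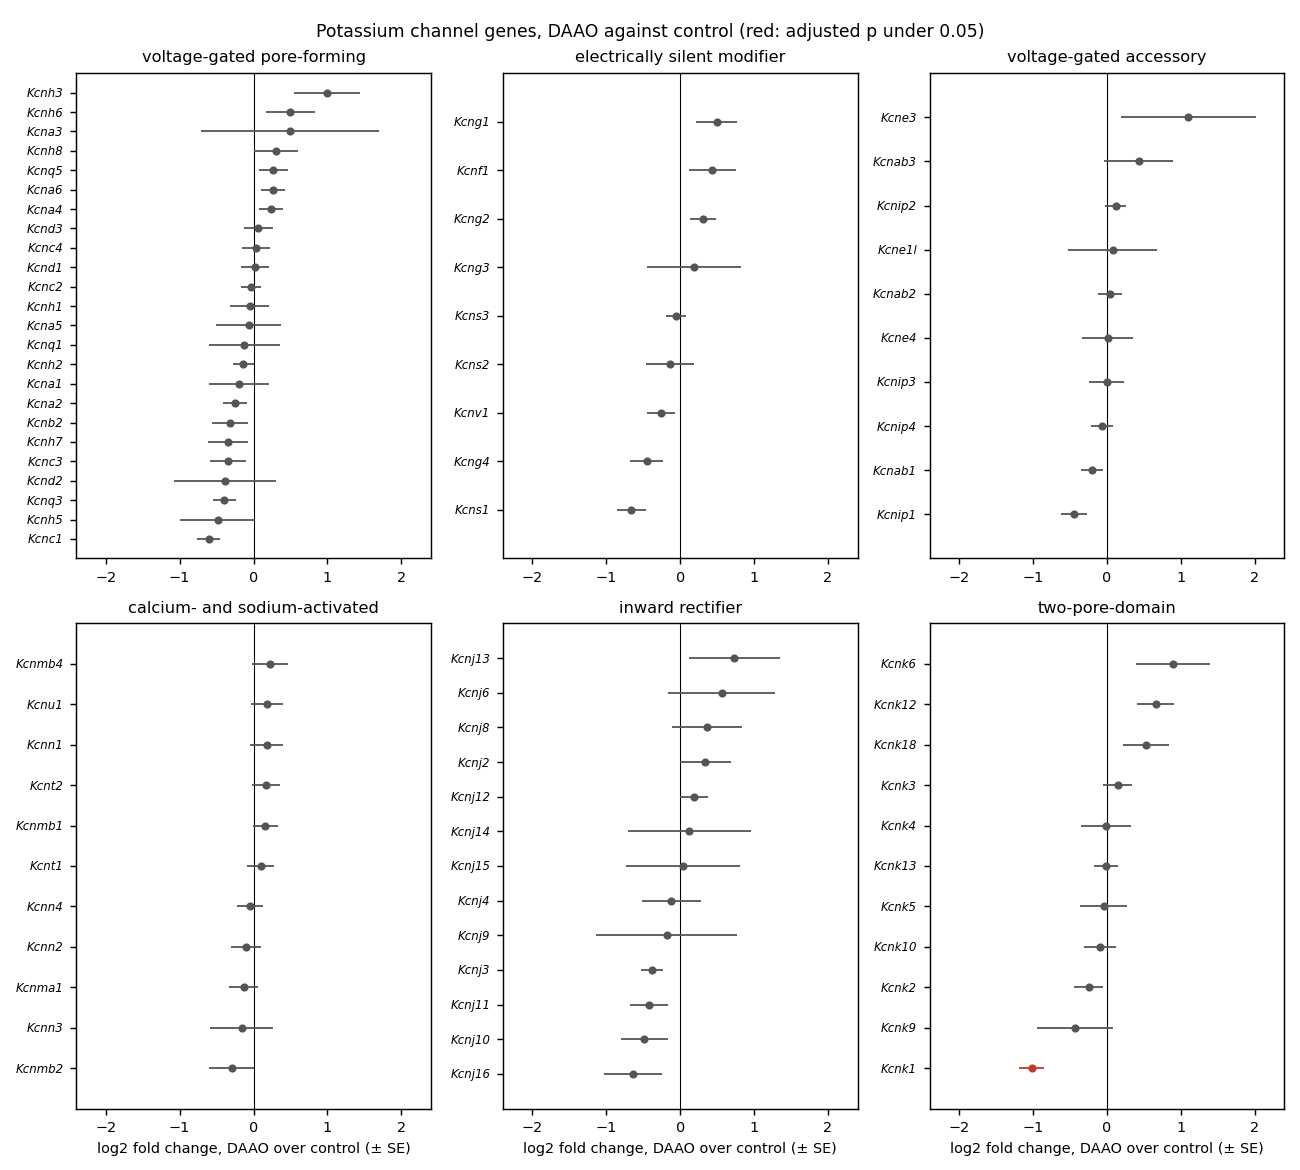
Log2 fold change, DAAO minus control, of 78 tested potassium channel genes (points) with its standard error (bars), grouped by class. Kcnk1 at -1.02 is the only gene that passed the adjusted threshold, and the other members lie on both sides of 0 in every class.

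Two-pore-domain subunits come in pairs to form leak channels. Of the 14 Kcnk genes 11 were tested, 4 with a positive and 7 with a negative log2 fold change and a median of -0.01. Kcnk1 (TWIK1, a weakly inward-rectifying leak subunit; ENSMUSG00000033998, chr8:125995170-126030685, plus strand, GRCm38) had a lowest, median and highest value of 26.5, 32.5 and 52.2 CPM in DAAO libraries, against 64.2, 71.4 and 93.3 CPM in control libraries. All 6 DAAO libraries thus lay below all 6 control libraries. Its mean was 36.4 ± 10.4 CPM in DAAO ganglia and 73.9 ± 10.2 CPM in control ganglia (SD, n = 6 each), a log2 fold change of -1.02 ± 0.17 (SE; edgeR adjusted p = 0.00530). The call held under all 23 alternatives, with log2 fold changes of -1.15 to -0.94. An annotated antisense gene, Gm45875, shares exon bases with Kcnk1 and held 22 counts in all, against 12320 for Kcnk1.

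Kcnk12 (THIK2, a subunit that gives little or no current alone) differed in the other direction without passing. Its lowest, median and highest values were 30.0, 33.4 and 40.7 CPM in DAAO libraries, against 9.14, 24.1 and 31.3 CPM in control libraries. The groups overlapped narrowly, the lowest DAAO library lying under the highest control library. The log2 fold change was 0.66 ± 0.25 (edgeR unadjusted p = 0.0172, adjusted p = 0.345). Per kilobase of gene length, a scale on which genes can be set beside each other, Kcnk1 made up 24.8% ± 4.70 of the summed Kcnk level in DAAO ganglia and 44.3% ± 7.28 in control ganglia. Kcnk12 made up 27.4% ± 3.62 in DAAO ganglia and 14.6% ± 5.51 in control ganglia. Kcnk12 stood above Kcnk1 in 4 of 6 DAAO libraries and in 0 of 6 control libraries. The ratio of Kcnk1 to Kcnk12 ran from 0.564 to 1.28 in DAAO libraries and from 1.96 to 7.12 in control libraries. The highest ratios were those of control 2 (6.75) and control 5 (7.12), where Kcnk12 had 12.0 and 9.14 CPM, and the other control libraries ran from 1.96 to 2.62. The ratio separated the groups, with the Kcnk1 difference already in it.

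**Figure D2:**
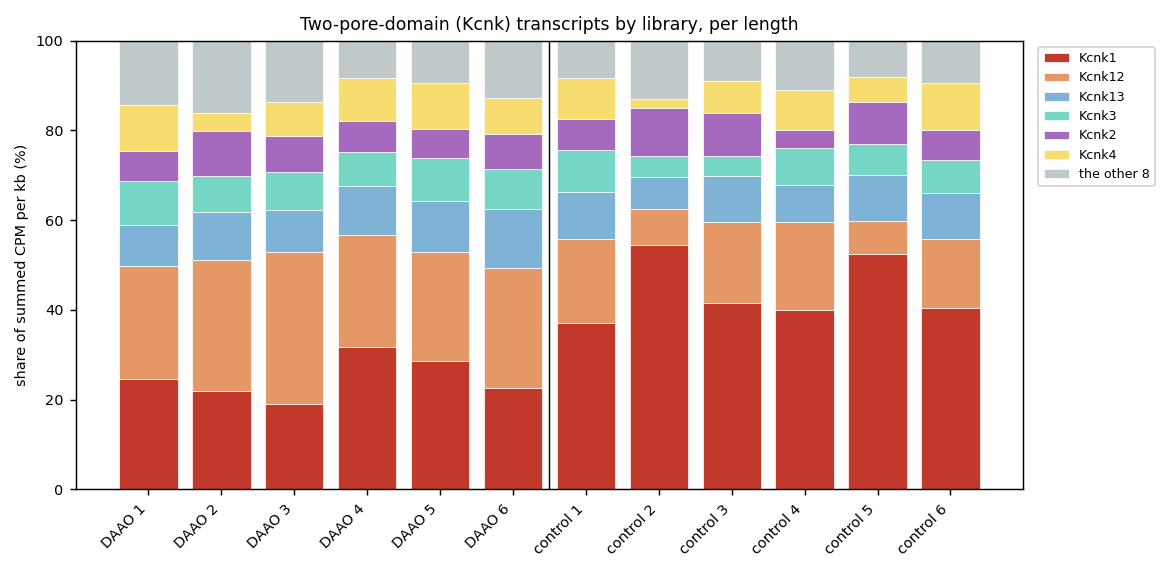
Share of each Kcnk gene in the summed CPM per kilobase of the subfamily, one bar per library, DAAO libraries on the left and control libraries on the right. Kcnk1 takes a smaller and Kcnk12 a larger share of the bar in the DAAO libraries (means 24.8% and 27.4%) than in the control libraries (means 44.3% and 14.6%).

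The other Kcnk genes did not pass. Kcnk6 (TWIK2) was scarce, at 3.11 ± 1.13 CPM in DAAO ganglia and 1.66 ± 1.33 CPM in control ganglia (log2 fold change 0.89 ± 0.51, edgeR adjusted p = 0.588). Kcnk18 (TRESK, a leak subunit of nociceptors) had 8.83 ± 2.76 CPM in DAAO ganglia and 6.12 ± 3.12 CPM in control ganglia (0.53 ± 0.31, adjusted p = 0.608). Kcnk2 (TREK1, opened by stretch and warmth) had 24.5 ± 2.90 CPM in DAAO ganglia and 29.1 ± 9.21 CPM in control ganglia, and Kcnk3 (TASK1, closed by acid) had 22.5 ± 2.96 CPM in DAAO ganglia and 20.4 ± 7.18 CPM in control ganglia. For Kcnk13 (THIK1), both group means lay near 22 CPM, and the log2 fold change was -0.01 ± 0.16. Kcnk4 (TRAAK) shares exon bases on the same strand with Catsperz, so its counts are uncertain.

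Markers of large sensory neurons moved in the same direction as Kcnk1. Of 7 proprioceptor and large neuron markers, 3 passed as lower in DAAO ganglia (0.247% of all genes tested did), the transcription factors Etv1 and Runx3 and the hearing and proprioception protein whirlin (Whrn), and all 7 had negative log2 fold changes (median -0.68). Their summed level was 1265 to 1897 CPM in DAAO libraries and 1644 to 3416 CPM in control libraries, and none was at 0. Some other lists also had mostly negative log2 fold changes, with all 10 skeletal muscle markers negative (median -2.475). The macrophage and fibroblast lists went the other way, with 7 of 8 and 6 of 6 markers positive (medians 0.69 and 0.47). Endothelial markers were split, 4 positive and 4 negative. All marker lists were chosen with earlier results of these data known. All 10 myelinating Schwann cell markers were negative (median -0.49), with 0 called by edgeR or limma-voom. DESeq2 called 1 lower, and 1.85% of all genes in either direction. At an unadjusted edgeR p under 0.05, 6 were lower (60%, against 4.87% of all genes lower). Of the 15 pan-neuronal markers 11 were negative (median -0.19), and 1, the vesicle fusion gene Snap25, passed as lower (-0.61, edgeR adjusted p = 0.0498). The part of the large neuron and Schwann cell lists in the Kcnk1 difference, and in those of the voltage-gated genes described next, was not tested. With the pan-neuronal level of each library as a term in the fit, Kcnk1 had a log2 fold change of -0.98. That term holds none of the large neuron or Schwann cell markers, and how far it follows the levels of those lists was not tested.

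Voltage-gated pore-forming subunits made up 31.9% ± 2.48 of the summed per-kilobase level of all potassium channel genes in DAAO ganglia and 31.3% ± 3.93 in control ganglia. Of 30 genes 27 were tested, 11 with a positive and 16 with a negative log2 fold change (median -0.07), and 0 passed the adjusted threshold by edgeR or limma-voom. At an unadjusted edgeR p under 0.05 there were 1 higher and 3 lower in DAAO ganglia (14.8% together, against 10.3% of all genes). Of all genes, 5.44% were higher and 4.87% lower. DESeq2 called 1 member lower, Kcnc1, and 1.85% of all genes in either direction. Kcnc1 encodes a fast delayed rectifier of neurons that fire at high rates, large sensory neurons among them. Its lowest, median and highest values were 39.1, 40.1 and 58.8 CPM in DAAO libraries, against 44.9, 66.8 and 92.1 CPM in control libraries. Every DAAO library lay below the control median, and the ranges overlapped. The log2 fold change was -0.61 ± 0.16 (edgeR unadjusted p = 0.00114, adjusted p = 0.0936). By DESeq2 the adjusted p of Kcnc1 was 0.0229, and over all 23 alternatives the adjusted p ran from 0.0121 to 0.258. Of the Kcnc subfamily's per-kilobase level, Kcnc1 made up 12.4% ± 1.45 in DAAO ganglia and 17.3% ± 3.99 in control ganglia. The most abundant member per kilobase, Kcnc4, which carries a rapidly inactivating current, had 77.1 ± 14.0 CPM in DAAO ganglia and 75.5 ± 22.3 CPM in control ganglia (log2 fold change 0.03 ± 0.19).

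Kcnq3 encodes a subunit of the channel of the M current, a slow current that damps repetitive firing. Its lowest, median and highest values were 32.5, 37.7 and 44.4 CPM in DAAO libraries, against 31.7, 48.2 and 69.8 CPM in control libraries. Every DAAO library lay below the control median, and the control range enclosed the DAAO range. The log2 fold change was -0.40 ± 0.16 (edgeR adjusted p = 0.383). Kcnq5 made up 15.6% ± 1.24 of the Kcnq per-kilobase level in DAAO ganglia and 11.5% ± 1.29 in control ganglia, a share that also depends on the other Kcnq genes. In CPM, Kcnq5 had 27.0 ± 3.44 in DAAO ganglia and 22.4 ± 7.17 in control ganglia (log2 fold change 0.27 ± 0.20, edgeR adjusted p = 0.712).

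**Figure D3:**
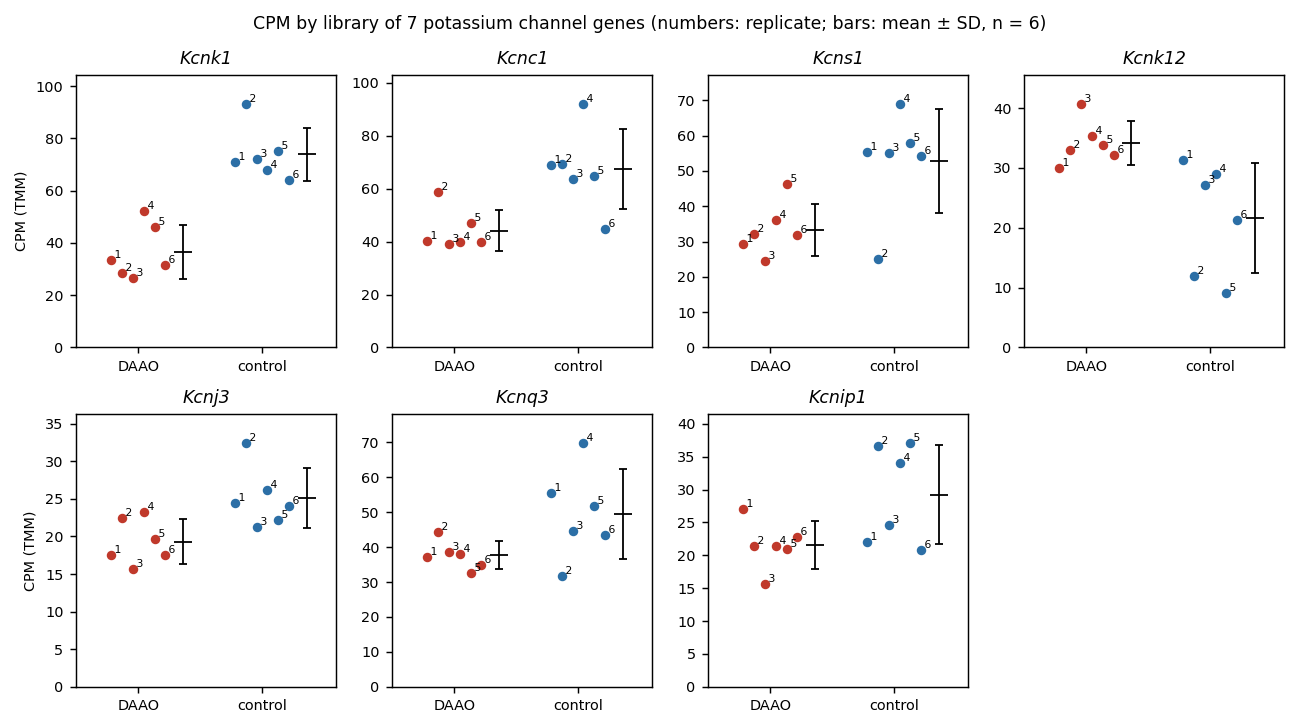
CPM of 7 potassium channel genes in each library (points, numbered by replicate), DAAO on the left of each panel and control on the right, with the group mean and SD. Kcnk1 separates the groups, whereas the other 6 genes overlap, and control library 2 is the lowest control for Kcns1 at 24.9 CPM.

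Shaker-type Kcna subunits, which sit beside the nodes of myelinated axons and at nerve endings, included none below an unadjusted p of 0.05. Kcna2 had 331 ± 39.2 CPM in DAAO ganglia and 394 ± 104 CPM in control ganglia (log2 fold change -0.25 ± 0.17, edgeR adjusted p = 0.664). Kcna6 had 168 ± 28.6 CPM in DAAO ganglia and 140 ± 29.8 CPM in control ganglia (0.26 ± 0.16, adjusted p = 0.625). Kcna2 made up 35.7% ± 1.56 of the subfamily's per-kilobase level in DAAO ganglia and 41.6% ± 3.65 in control ganglia, and Kcna6 36.7% ± 6.73 in DAAO ganglia and 30.2% ± 5.09 in control ganglia. Kcna1, which joins Kcna2 in these channels, had 69.9 ± 27.9 CPM in DAAO ganglia and 80.1 ± 47.8 CPM in control ganglia. Kcna4, a transient-current subunit typical of small sensory neurons, had 26.2 ± 3.60 CPM in DAAO ganglia and 22.3 ± 4.61 CPM in control ganglia (0.23 ± 0.16, adjusted p = 0.680).

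Kcnb2, a pore of the sustained delayed rectifier current, had 125 ± 13.9 CPM in DAAO ganglia and 155 ± 60.5 CPM in control ganglia (log2 fold change -0.32 ± 0.24). The pores of the transient Kcnd current were among the abundant members. Kcnd1 had 219 ± 37.9 CPM in DAAO ganglia and 216 ± 62.7 CPM in control ganglia (log2 fold change 0.02 ± 0.19), and made up 69.2% ± 1.95 of the Kcnd per-kilobase level in DAAO ganglia and 68.8% ± 3.55 in control ganglia. Kcnd3 had 165 ± 23.7 CPM in DAAO ganglia and 158 ± 47.3 CPM in control ganglia. None of these genes passed the test. Kcnd2 was scarce in most libraries, with a median of 4.10 CPM in DAAO ganglia and 3.79 CPM in control ganglia, and reached 24.8 CPM in control 2.

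Among the ether-a-go-go-related Kcnh genes, Kcnh3 had the smallest p, at 2.49 ± 1.23 CPM in DAAO ganglia and 1.24 ± 0.433 CPM in control ganglia (log2 fold change 0.99 ± 0.45, edgeR unadjusted p = 0.0418, adjusted p = 0.464). It shares exon bases with Mcrs1 on the opposite strand, and Mcrs1 held 9894 counts against 408 for Kcnh3, so the value is uncertain. Kcnh2, the repolarising subunit known from the heart, was the most abundant of the subfamily per kilobase, at 77.4 ± 5.57 CPM in DAAO ganglia and 85.4 ± 20.2 CPM in control ganglia (-0.14 ± 0.14, adjusted p = 0.829). Kcnh6 made up 33.9% ± 4.03 of the Kcnh per-kilobase level in DAAO ganglia and 23.5% ± 6.90 in control ganglia. Its values were 37.9 to 61.2 CPM in DAAO libraries and 7.50 to 54.5 CPM in control libraries, the lowest being control 2. The log2 fold change of Kcnh6 was 0.50 ± 0.33 (edgeR adjusted p = 0.680), and 0.29 without control 2.

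Silent modifier subunits (Kcnf, Kcng, Kcns and Kcnv) change the gating of other voltage-gated channels. Of 10 genes 9 were tested, 4 with a positive and 5 with a negative log2 fold change (median -0.06), and 0 passed, by edgeR, DESeq2 or limma-voom. At an unadjusted edgeR p under 0.05, 1 was lower (11.1%, against 4.87% of all genes lower). That gene was Kcns1, a subunit of myelinated sensory neurons that falls after nerve injury in rats. Its lowest, median and highest values were 24.6, 32.0 and 46.2 CPM in DAAO libraries, against 24.9, 55.3 and 69.0 CPM in control libraries. Control 2, at 24.9 CPM, lay within the DAAO range, and the other 5 control libraries lay at 54.2 CPM or above, over every DAAO library. The log2 fold change was -0.66 ± 0.20 (edgeR adjusted p = 0.185) with all libraries and -0.80 without control 2, where the adjusted p was 0.00899; over all 23 alternatives it ran from 0.00722 to 0.388. Kcns1 made up 42.1% ± 4.37 of the Kcns per-kilobase level in DAAO ganglia and 51.8% ± 5.61 in control ganglia, while Kcns3 made up 55.9% ± 4.51 in DAAO ganglia and 46.6% ± 5.38 in control ganglia. In CPM, Kcns3 differed little, at 51.3 ± 8.47 in DAAO ganglia and 53.4 ± 7.46 in control ganglia (log2 fold change -0.06 ± 0.13).

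The remaining silent subunits had wider errors relative to their differences. Kcng4 had 6.87 ± 1.48 CPM in DAAO ganglia and 9.43 ± 2.38 CPM in control ganglia (log2 fold change -0.46 ± 0.22, edgeR adjusted p = 0.496). Kcng1 had 3.72 ± 0.352 CPM in DAAO ganglia and 2.65 ± 0.703 CPM in control ganglia (0.49 ± 0.28, adjusted p = 0.592), and Kcng2 had 28.7 ± 6.57 CPM in DAAO ganglia and 23.3 ± 5.04 CPM in control ganglia (0.30 ± 0.18, adjusted p = 0.605). Kcnv1, the only tested Kcnv gene, had 29.6 ± 2.41 CPM in DAAO ganglia and 35.4 ± 11.1 CPM in control ganglia (-0.26 ± 0.19, adjusted p = 0.722). Kcnf1 had 5.33 ± 1.65 CPM in DAAO ganglia and 3.95 ± 1.59 CPM in control ganglia (0.44 ± 0.32, adjusted p = 0.719).

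Accessory subunits of voltage-gated channels held the largest class share, 42.1% ± 2.98 of the summed per-kilobase level in DAAO ganglia and 40.7% ± 3.07 in control ganglia. Kcnab2, the cytoplasmic beta subunit that escorts Kcna channels into the axon, alone made up 19.0% ± 1.13 in DAAO ganglia and 17.8% ± 1.63 in control ganglia. Its level was 160 ± 22.5 CPM per kilobase in DAAO ganglia and 155 ± 37.3 CPM per kilobase in control ganglia (log2 fold change 0.04 ± 0.17). Of 12 genes 10 were tested, 6 with a positive and 4 with a negative log2 fold change (median 0.03), and 0 passed, by edgeR, DESeq2 or limma-voom. At an unadjusted edgeR p under 0.05, 1 was lower (10%, against 4.87% of all genes lower). That gene was Kcnip1, a calcium-binding partner of Kcnd channels, with a lowest, median and highest value of 15.6, 21.3 and 27.1 CPM in DAAO libraries, against 20.8, 29.4 and 37.1 CPM in control libraries. Its groups overlapped, and the log2 fold change was -0.44 ± 0.18 (edgeR adjusted p = 0.385). The more abundant relatives of Kcnip1 lay closer to 0: Kcnip3 at -0.0049 ± 0.24, Kcnip4 at -0.07 ± 0.15 and Kcnip2 at 0.12 ± 0.14. Among the Kcne genes, small membrane subunits of several channels, Kcne1l was the most abundant per kilobase, at 2.08 ± 1.16 CPM in DAAO ganglia and 1.98 ± 1.48 CPM in control ganglia.

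**Figure D4:**
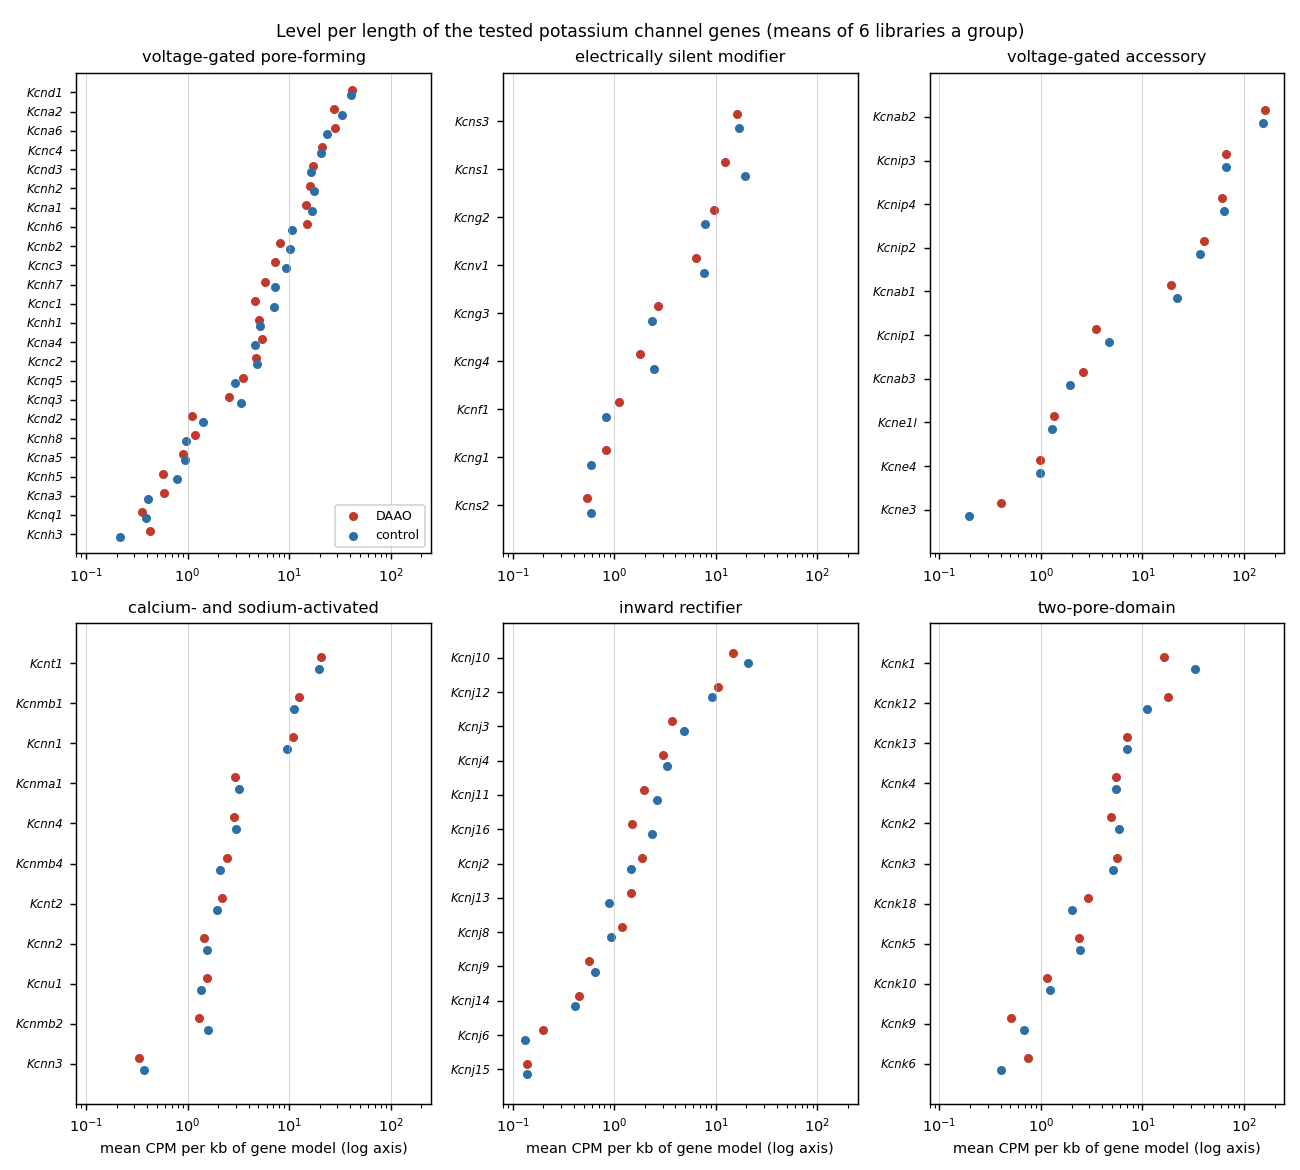
Mean level of 78 tested potassium channel genes over 6 libraries in CPM per kilobase of gene length (log axis), by class, with the DAAO point above the control point of each gene. Kcnab2 stands highest in both groups, at 160 CPM per kilobase in DAAO ganglia and 155 in control ganglia.

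Inward rectifiers pass potassium more readily into than out of the cell. Of 15 Kcnj genes 13 were tested, 7 with a positive and 6 with a negative log2 fold change (median 0.03), and 0 passed, by edgeR, DESeq2 or limma-voom. At an unadjusted edgeR p under 0.05, 1 was lower (7.69%, against 4.87% of all genes lower). That gene was Kcnj3 (GIRK1, opened by G proteins downstream of inhibitory receptors), with a lowest, median and highest value of 15.6, 18.6 and 23.2 CPM in DAAO libraries, against 21.3, 24.3 and 32.4 CPM in control libraries. All 6 DAAO libraries lay below the control median, and the upper DAAO values overlapped the lower control values. Its log2 fold change was -0.38 ± 0.15 (edgeR adjusted p = 0.360). Kcnj11, the pore of the ATP-sensitive channel, had 7.21 ± 1.29 CPM in DAAO ganglia and 9.69 ± 3.41 CPM in control ganglia (-0.43 ± 0.25, adjusted p = 0.615).

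Kcnj10, which buffers potassium in satellite glia, and Kcnj16, which assembles with it, were both highest in control 2. Kcnj10 had a lowest, median and highest value of 64.7, 75.6 and 102 CPM in DAAO libraries, against 43.2, 89.3 and 232 CPM in control libraries. Kcnj16 had 3.21, 5.08 and 10.5 CPM in DAAO libraries, against 4.34, 7.16 and 21.8 CPM in control libraries. The control range enclosed all DAAO values of Kcnj10 and 4 of 6 of Kcnj16. Their log2 fold changes were -0.49 ± 0.32 (edgeR adjusted p = 0.663) and -0.64 ± 0.39 (adjusted p = 0.631). Without control 2 they were -0.13 for Kcnj10 and -0.18 for Kcnj16. The satellite glia markers summed to 4325 to 6464 CPM in DAAO libraries and 2596 to 5465 CPM in control libraries. Of these 5, 0 were called by edgeR, 0 by limma-voom, and 1 higher and 1 lower by DESeq2 (1.85% of all genes called in either direction). At an unadjusted edgeR p under 0.05 there were 2 (40%, against 10.3% of all genes). Most of the satellite glia sum was Apoe, at 4680 CPM on average in DAAO ganglia and 2747 CPM in control ganglia, whereas 3 of the 5 markers had negative log2 fold changes (median -0.19). Both the oligodendrocyte and spinal cord markers, at 2383 CPM, and the myelinating Schwann cell markers, at 22492 CPM, were highest in control 2. Mbp alone held 13172 CPM of that Schwann cell sum. The oligodendrocyte and spinal cord list held 100.4 to 686 CPM in DAAO libraries, and the myelinating Schwann cell list 6537 to 7666 CPM. The part of these lists in the Kcnj values was not tested.

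Calcium- and sodium-activated channel genes spanned the narrowest range of log2 fold changes of the 6 classes. Of 12 genes 11 were tested, 6 with a positive and 5 with a negative log2 fold change between -0.30 and 0.22 (median 0.10). None reached an unadjusted p under 0.05 by edgeR. Kcnt1, the sodium-activated pore, had 198 ± 31.7 CPM in DAAO ganglia and 186 ± 49.7 CPM in control ganglia (log2 fold change 0.10 ± 0.18). Kcnma1, the large-conductance calcium-activated pore, had 49.4 ± 6.57 CPM in DAAO ganglia and 54.1 ± 19.1 CPM in control ganglia (-0.13 ± 0.20). Its accessory subunit Kcnmb1 had 52.7 ± 10.02 CPM in DAAO ganglia and 47.2 ± 10.6 CPM in control ganglia (0.16 ± 0.17). Kcnn1, a small-conductance pore of the current that follows spikes, had 49.7 ± 10.1 CPM in DAAO ganglia and 43.9 ± 14.9 CPM in control ganglia (0.18 ± 0.22). Kcnu1, known from sperm, had 5.77 ± 0.831 CPM in DAAO ganglia and 5.09 ± 0.729 CPM in control ganglia (0.18 ± 0.21).

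The 12 members that did not pass the filter held few counts. Over all 6 libraries of a group the largest sums were those of Kcnmb3, with 44 counts in DAAO libraries and 23 in control libraries, and Kcnk7, with 18 in DAAO libraries and 54 in control libraries. Kcna10 held 19 counts in DAAO libraries and 42 in control libraries, Kcna7 30 in DAAO and 27 in control libraries, and Kcnk16 29 in DAAO and 33 in control libraries. Kcne2 held 23 counts in DAAO libraries and 6 in control libraries, and Kcnh4 21 in DAAO and 11 in control libraries. Kcnj5 held 0 counts in DAAO libraries and 7 in control libraries, and Kcnk15 held 0 in DAAO libraries and 1 in control libraries. Kcne1, Kcnj1 and Kcnv2 held 0 counts in all 12 libraries. At the other end, 15 members averaged at least 100 CPM in either group, and 34 of those tested averaged under 10 CPM in both.

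Control libraries varied more than DAAO libraries. The median SD of log2 CPM over the tested members was 0.294 in DAAO libraries and 0.536 in control libraries, and the control SD was the larger for 66 of 81 members (81.5%, against 79.0% of all genes tested). Control 2 was the lowest of the 12 libraries for 36 members and the highest for 12, control 4 was the highest for 22, and control 6 was the lowest for 13. The members highest in control 2 included Kcnj10, Kcnj16, Kcnk9 at 23.2 CPM and Kcnj9 at 8.25 CPM. With controls 2 and 6 left out, 8 of 81 members (9.88%) passed as lower and 0 as higher by edgeR, against 1.78% of all genes tested then called lower and 3.63% called in either direction. Of these, 7 are reported singly, with log2 fold changes of -0.97 for Kcnk1, -0.83 for Kcns1, -0.72 for Kcnc1, -0.56 for Kcnq3, -0.47 for Kcnv1, and, for 2 genes chosen after their values were seen, -0.63 for Kcnh7, which shares exon bases with Gca, and -0.56 for Kcnb2. Without control 2 alone there were 3, Kcnk1 and Kcns1 among them (3.70% of the members, against 0.68% of all genes called lower and 1.85% called in either direction). With all libraries, Kcnk1 was called and, by DESeq2 or with no filter on low counts, Kcnc1 was too, whereas the other 6 were called only with control libraries left out. Controls 2 and 6 were the lowest libraries for many members, so leaving them out raises the control level of those members. The lower calls made without them are therefore no separate support for a difference.

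**Figure D5:**
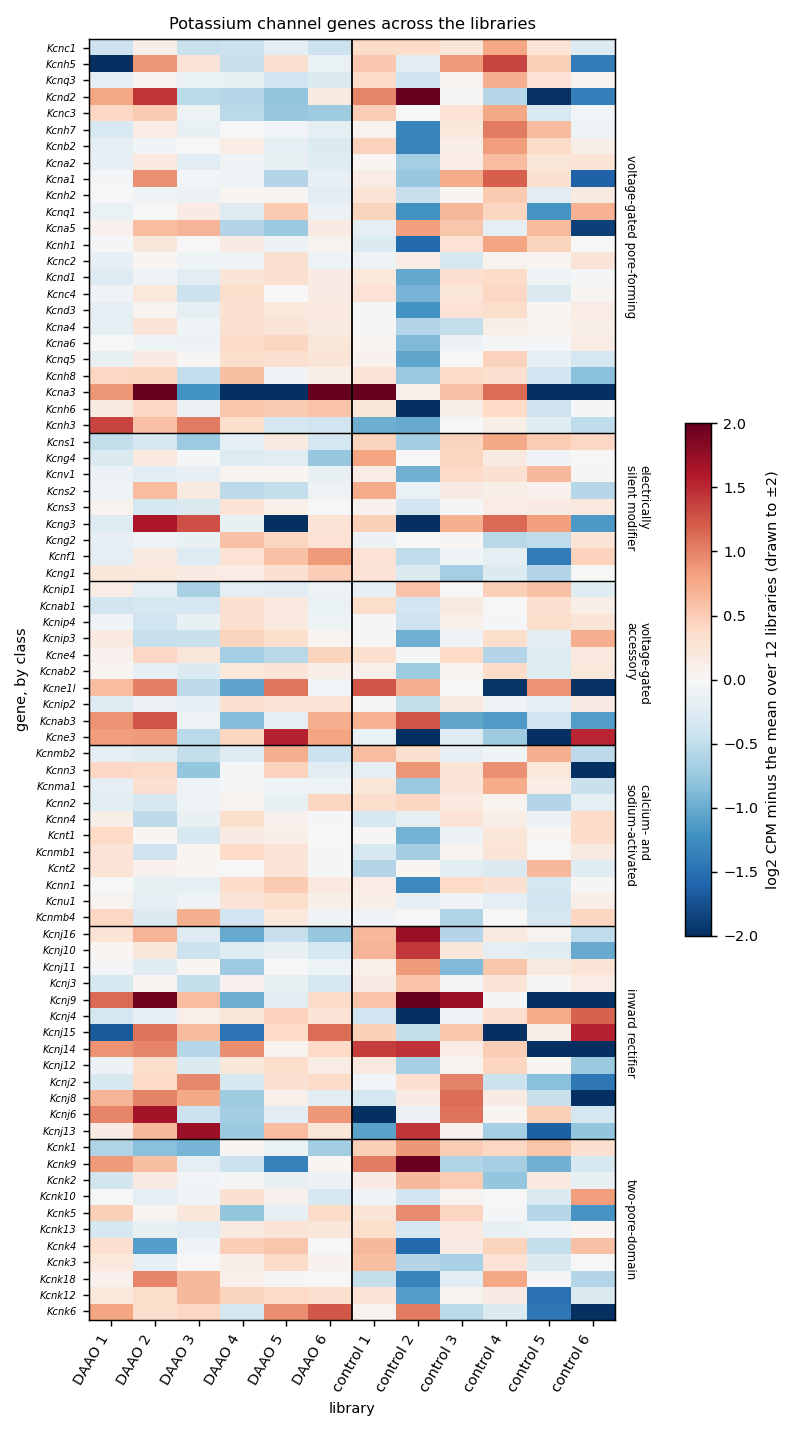
Log2 CPM of 78 tested potassium channel genes, each minus its mean over the 12 libraries, by class (rows) and library (columns, DAAO on the left, control on the right), on a colour scale drawn to ±2. Control 2 shows the most blue cells, being the lowest library for 36 of all 81 tested genes, and Kcnk1, first in the two-pore-domain block, is blue or near white in the DAAO columns and red in the control columns.

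Proteins that place or modify potassium channels were read from a list of 20 genes, chosen with earlier results of these data known. Of the list, 18 were tested. Of these 6 had a positive and 12 a negative log2 fold change (median -0.12, against 0.00 over all genes), and 0 passed by edgeR, DESeq2 or limma-voom, with 4 lower and 0 higher at an unadjusted edgeR p under 0.05 (22.2%, against 4.87% of all genes lower and 10.3% in either direction). The smallest p belonged to Dlg2, a scaffold that clusters Kcna channels, with 34.5 ± 7.18 CPM in DAAO ganglia and 50.9 ± 13.8 CPM in control ganglia (log2 fold change -0.56 ± 0.18, edgeR adjusted p = 0.232). Dpp10, a membrane partner of Kcnd channels, had 139.7 ± 26.4 CPM in DAAO ganglia and 177 ± 26.8 CPM in control ganglia (-0.34 ± 0.14, adjusted p = 0.409). Cntnap2, the adhesion protein that holds Kcna channels beside the nodes, had 125 ± 10.1 CPM in DAAO ganglia and 161 ± 42.6 CPM in control ganglia (-0.37 ± 0.15, adjusted p = 0.415). Without controls 2 and 6, 19 of the list were tested and 4 were called lower, Adam23 (-0.68), Dlg2 (-0.68), Cntnap2 (-0.55) and Adam22 (-0.45). In that fit 1.78% of all genes were called lower and 3.63% in either direction. The list was chosen with earlier results known, so these calls, like those of the members, are no separate support for a difference.

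A list of 4 repressor genes, known from work on potassium channel promoters, was also chosen with earlier results of these data known. All 4 had a positive log2 fold change and 0 passed by edgeR, DESeq2 or limma-voom. At an unadjusted edgeR p under 0.05, 2 were higher, against 5.44% of all genes. Any part of these genes in the potassium channel values was not tested. Rest, which represses neuronal genes, had 14.7 ± 2.34 CPM in DAAO ganglia and 9.61 ± 2.28 CPM in control ganglia (0.61 ± 0.19, edgeR adjusted p = 0.196). Mbd1, which binds methylated DNA, had 38.9 ± 2.34 CPM in DAAO ganglia and 31.1 ± 2.11 CPM in control ganglia (0.32 ± 0.10, adjusted p = 0.225), with all DAAO libraries above all control libraries, as in 0.918% of all genes tested.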

How the data were processed

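Per the labels' protocols, ganglia were snap frozen, RNA was taken with Trizol, and paired reads were made on an Illumina instrument. The authors deposited whole-number read counts per gene, not normalised; the submitters' processing notes list GRCm38, mm10, HISAT2 2.0.5, DESeq2 1.20.0 and FastQC. Which program counted reads, its strand setting and its annotation are not given in the sources, so counts of overlapping genes are uncertain: 28 tested members share exon bases with another gene, 26 with one on the opposite strand. The deposited gene length, in bases, gave CPM per kilobase.

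Genes were kept with filterByExpr (minimum count 10, minimum total 15), scaled by TMM and fitted in R 4.3.3 with edgeR 4.0.16 (robust quasi-likelihood test) on 6 DAAO and 6 control libraries, two-sided, with Benjamini-Hochberg adjustment over 17002 genes and a threshold of 0.05. The SE is the absolute log2 fold change over the square root of F. Groups came from sample titles. The fit was tested on simulated data in which both groups had the same spread for each gene. In the data themselves control libraries varied more, so that test does not cover unequal spread. No 2 libraries agreed within counting noise (smallest chi-square per degree of freedom 18.2 over 66 pairs). The members and lists were chosen with earlier results of these data known. Genes were named by rule: those that passed, the 20 with the smallest p, the most abundant per kilobase of each subfamily, and 3 of the partner list; 36 members met it, of which 3 are not reported here, and other members given values were chosen after their values were seen. Alternatives were other scalings, DESeq2 1.42.0, limma-voom 3.58.1, other filters, a replicate block, tissue levels as terms and libraries left out.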

Additional observations from a re-analysis of the deposited data

Results flagged for a closer look

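In 5 of 66 groups of 6 libraries examined for 33 named potassium channel genes, the highest or lowest library stood apart by Dixon's criterion, where chance gives about 1 in 20. Among the control libraries, control 2 was low for Kcns1, at 24.9 CPM with the next library at 54.2 and the highest at 69.0 CPM. Control 2 was also low for Kcna6, at 82.2 CPM with the next at 139 and the highest at 167 CPM. The same library was high for Kcnj16, at 21.8 CPM with the next at 10.4 and the lowest at 4.34 CPM. DAAO library 2 was high for Kcna2, at 406 CPM with the next at 338 and the lowest at 298 CPM. It was also high for Kcnma1, at 62.5 CPM with the next at 48.7 and the lowest at 44.2 CPM.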

How the results depend on the processing

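Of 756 values of single genes under alternatives, 707 kept their direction and side of the threshold, 8 newly passed (4 genes) and 41 changed sign (10 genes); the cause was not tested. No scaling moved the median of all genes by over 0.1. Called potassium channel genes numbered 1 with all libraries, 2 at an adjusted p under 0.1, 2 by DESeq2, 2 with no filter (Kcnk1 and Kcnc1 in these) and 8 without controls 2 and 6, and 1 to 3 with each library left out. All genes called numbered 128, then 226, 373 by DESeq2 and 648 without controls 2 and 6, and 61 to 322 with each library left out. Partner genes called numbered 0, then 4 without controls 2 and 6, and 0 to 1 with each library left out. Same-numbered libraries correlated at -0.0807 to 0.215 and 2 of 6 matched their own number best. No clear pairing by number was seen, but 6 libraries per group are too few to exclude one. With the replicate block, 1 potassium channel gene, 187 genes in all and 0 partner genes were called.

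Sign changes were met for genes near 0. Kcnip3 stood at 0.038 by limma-voom, 0.0057 with no filter, 0.042 with the block, 0.36 with the pan-neuronal and 0.20 with the oligodendrocyte level as a term, and 0.018 without controls 2 and 6. With the pan-neuronal term Kcnh2 stood at 0.0026, Kcns3 at 0.083 and Kcne1l at -0.037, and with the oligodendrocyte term Kcns3 at 0.017. With the muscle term Kcnab2 stood at -0.011, Kcnc4 at -0.027 and Kcnd1 at -0.015. Without controls 2 and 6 Kcne1l stood at -0.076, Kcnab2 at -0.043, Kcnc4 at -0.13, Kcnd1 at -0.17 and Kcnn1 at -0.0087. With each library left out, Kcnab2 ran from -0.062 to 0.13, Kcnc4 from -0.10 to 0.12, Kcnd1 from -0.12 to 0.10, Kcne1l from -0.15 to 0.39, Kcnip3 from -0.14 to 0.17, Kcnma1 from -0.25 to 0.036, Kcns3 from -0.12 to 0.0039 and Kcnt1 from -0.032 to 0.18. At these depths 12 of the 93 members held too few counts to be tested.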

Other observations

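Antisense genes at potassium channel loci lie outside the protein-coding rule. Kcnq1ot1, the long transcript that overlaps Kcnq1, had a log2 fold change of 0.23 (edgeR adjusted p = 0.903), Kcnd3os -1.27 (adjusted p = 0.642) and Kcnmb4os2 -0.13 (adjusted p = 0.985). Kcnab3os and Kcnmb4os1 did not pass the filter on low counts. Kcnrg, a regulator whose symbol has no digit, had a log2 fold change of 1.17 (adjusted p = 0.694). Kcnj13, Kcnq1, Kcnk4 and Kcnh7 share exon bases with other genes that held counts of their own. Gigyf2 held 11142 counts against 335 for Kcnj13, Kcnq1ot1 held 4926 against 337 for Kcnq1, Catsperz held 1926 against 2073 for Kcnk4, and Gca held 4653 against 22688 for Kcnh7.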
